A study of Danio rerio with 8 samples.

Results

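Transcripts of matrix metalloproteinases (MMPs) and of their tissue inhibitors (TIMPs) were examined in sorted cells of the macrophage lineage from zebrafish larvae. Genes were taken by name from the deposited count table, from a list selected on their counts in mutants against siblings. Of 10 names listed, 9 were found, in 10 rows of the 24221 genes in the table, because 2 rows carry the name mmp13a; mmp25a is not analysed here. Because the names were chosen by a look at these counts, the differences between the genotypes are given as a description, from which no test is read.

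All larvae were of the TL strain and 6 days old, counted from fertilization. One group of 4 carried the genotype rraga mutant and the other group of 4 was wild type at rraga, from siblings; the allele and its zygosity are not given in the labels. They were raised in water with methylene blue and PTU, and were scored as mutant or wild type by microscopy at 4 and 5 days. GFP driven by the mpeg promoter, which is active in macrophages and microglia, marked the cells that were sorted, and neither the number of larvae behind a library nor whether libraries came from separate clutches is stated, so the spread between libraries may be partly technical. rraga encodes RagA, a GTPase that brings the kinase complex mTORC1 to the lysosome when amino acids are present.

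MMPs are zinc-dependent proteases that cut collagens, other proteins of the extracellular matrix, and many cytokines and surface receptors. Most are made as inactive zymogens and are either secreted or held at the cell surface, as the membrane-type MMPs are. TIMPs block their active sites, and in mammals TIMP2 also forms a bridge through which the membrane-type enzyme MMP14 activates pro-MMP2. Macrophages and neutrophils use these enzymes when they cross tissue and during inflammation.

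Library totals were 24940664 to 30911560 counts in mutants and 25530526 to 29147340 in siblings. Levels are CPM, counts relative to a library's total after TMM scaling, and CPM per kilobase of gene length wherever genes are compared with each other. Of 16086 tested genes, 14.5% were called higher in mutants and 13.9% lower at a threshold of 0.05 (quasi-likelihood test of edgeR, p-values adjusted by Benjamini and Hochberg's method), and in 31.4% the ranges of the 4 mutant and 4 sibling libraries did not overlap. Scaled by library size alone, 34.7% of the calls were higher, against 51.1% with TMM factors, and the median log2 fold change over all tested genes was -0.26 against -0.09. mpeg1.1, whose promoter drove the sort marker, ranged from 41.7 to 89.5 CPM in mutants and from 221 to 250 CPM in siblings, and it was called lower. Of 14 listed markers of the macrophage lineage, all tested, 8 were called lower and 1, spi1b, higher. Their sum was 5163 to 6344 CPM in mutants and 6233 to 7409 CPM in siblings, ranges that overlapped, with the mutant library the lower in all 4 column numbers. Of 9 listed microglia markers 7 were tested, and 2 were called higher and 3 lower. The microglia sum was 6970 to 7895 CPM in mutants and 7186 to 13090 CPM in siblings, ranges that also overlapped. It too was lower in the mutant library in all 4 column numbers. In sorted bulk samples, fewer cells of a type and less RNA per cell cannot be told apart.

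All 10 rows passed the filter on low counts. mmp25b and mmp14b were called higher in mutants, which is 2 of 10 rows where 14.5% of all tested genes were. mmp2, both mmp13a rows and timp2b were called lower, 4 of 10 where 13.9% of all tested genes were. mmp9, mmp14a, mmp30 and timp2a were not called. The ranges of the genotypes did not overlap for 3 rows, mmp25b, mmp14b and timp2b, where 31.4% of all tested genes had such ranges. The median log2 fold change of the 10 rows was -0.76, and that of all tested genes -0.09. The members were chosen with this comparison known, so these shares show nothing particular to the family.

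**Figure D1:**
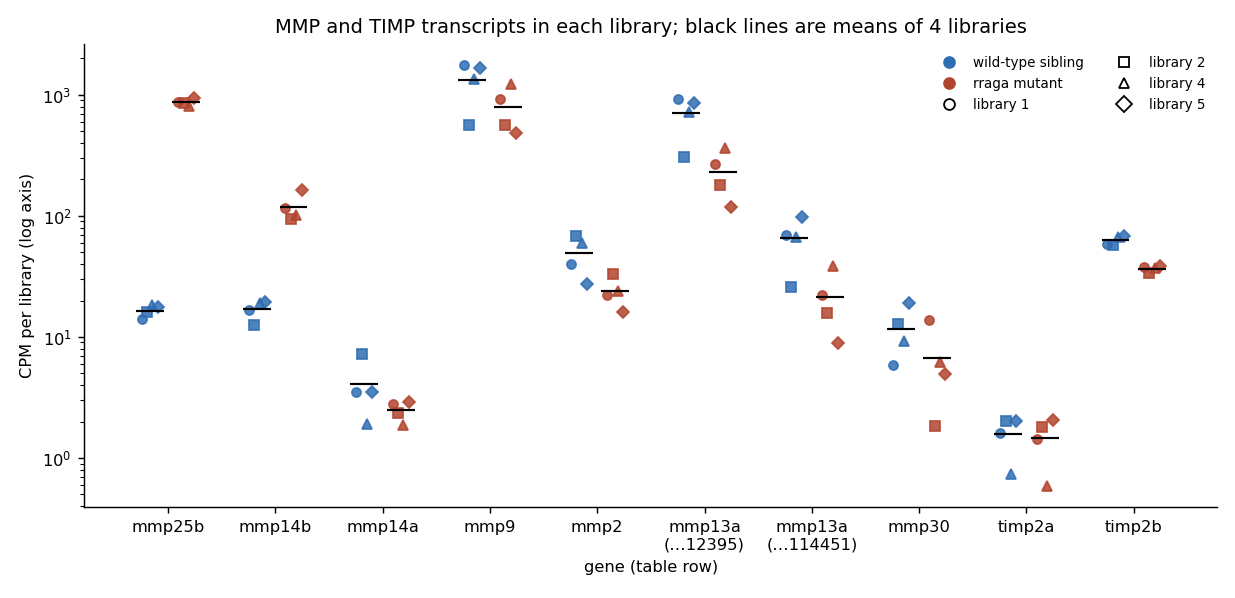
Level of each MMP and TIMP row in CPM (log axis) in the 4 sibling libraries (blue) and the 4 mutant libraries (red), with a symbol for each column number and a black line at the mean of 4 libraries. mmp25b lies between 14.02 and 18.3 CPM in siblings and between 811 and 945 CPM in mutants, while mmp9 overlaps between the genotypes.

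Among the membrane-type enzymes, mmp25b (ENSDARG00000010556, GRCz11 chromosome 12, 4260779 to 4278329, plus strand) showed the largest difference of the 10 rows. In mammals MMP25 is a membrane-type MMP held by a lipid anchor and is typical of leukocytes. Its level was 14.02, 16.2, 18.3 and 17.6 CPM in sibling libraries 1, 2, 4 and 5, and 871, 862, 811 and 945 CPM in mutant libraries 1, 2, 4 and 5. Every mutant library was far above every sibling library, and the spread within each genotype was small. The means were 872 ± 55.5 and 16.5 ± 1.89 CPM (SD, n = 4), a 52.8-fold difference and a log2 fold change of 5.72 (SE 0.132).

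This fold change ranked 22 from the top of the 16086 tested genes. Per kilobase, mmp25b went from rank 4944 in siblings to rank 170 in mutants, at 9.60 ± 1.096 and 506 ± 32.2 CPM per kilobase. Taking libraries with the same column number together, the mutant level was 62.1, 53.3, 44.3 and 53.6 times the sibling level for numbers 1, 2, 4 and 5. No mutant library set the size of the difference, and without any one of the 8 libraries the log2 fold change stayed between 5.65 and 5.78.

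mmp14b (ENSDARG00000008388, chromosome 2, 38161318 to 38183641, plus strand) encodes a copy of the membrane-type enzyme that activates pro-MMP2 and cuts fibrillar collagen. Siblings held 16.6, 12.6, 19.2 and 19.5 CPM in libraries 1, 2, 4 and 5, and mutants 116, 94.3, 102 and 165 CPM. The genotypes did not overlap, and mutant library 5 was the highest. The difference was 7.03-fold, with a log2 fold change of 2.81 (SE 0.216) and 2.66 to 2.92 when any one library was left out.

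The other copy, mmp14a (ENSDARG00000002235, chromosome 7, 24124289 to 24149670, minus strand), was not called. It stood at 2.48 ± 0.472 CPM in mutants and 4.05 ± 2.26 CPM in siblings, with raw counts of 48 to 88 and 49 to 213, and its genotypes overlapped. Per kilobase, mmp14b lay above mmp14a in both genotypes, at 3.79 ± 0.709 against 1.15 ± 0.644 in siblings and 26.7 ± 7.13 against 0.708 ± 0.135 in mutants. The copies may share reads, as may other paralogs of the family.

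The gelatinases cut denatured collagen and basement membrane components. mmp9 (ENSDARG00000042816, chromosome 8, 24281512 to 24295947, plus strand), which encodes gelatinase B, was the most abundant row per kilobase in siblings together with the first mmp13a row. It measured 1764, 569, 1348 and 1673 CPM in sibling libraries 1, 2, 4 and 5, and 924, 565, 1221 and 480 CPM in mutant libraries 1, 2, 4 and 5. Sibling library 2 was as low as the lower mutant libraries, and the genotypes overlapped. The means were 797 ± 342 and 1339 ± 543 CPM (SD, n = 4), with a log2 fold change of -0.75 (SE 0.383), and the row was not called.

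The ratio of mmp9 between mutant and sibling libraries of the same number was 0.524, 0.993, 0.906 and 0.287 for numbers 1, 2, 4 and 5. All 4 ratios were below 1, with those of numbers 2 and 4 close to it. Without sibling library 2 the log2 fold change was -0.97, and over all single libraries left out it ran from -1.02 to -0.53. mmp9 varied more within a genotype than most genes: its coefficient of variation in siblings, 40.6%, lay at the 94.3 percentile of the 7568 genes with at least 10 CPM on average, whose median was 14.8%. High spread was not particular to mmp9. In siblings the first mmp13a row lay at the 94.0 percentile, the second at 96.2, mmp2 at 93.2 and mmp14b at 66.0. mmp25b, at 11.4%, lay at the 33.6 percentile and timp2b, at 8.46%, at the 19.0 percentile.

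mmp2 (ENSDARG00000017676, chromosome 7, 35410050 to 35432901, minus strand) encodes gelatinase A, made in mammals chiefly by fibroblasts and other stromal cells. It was called lower in mutants, at 22.1, 33.3, 24.1 and 16.0 CPM in libraries 1, 2, 4 and 5, against 40.1, 68.7, 59.9 and 27.6 CPM in siblings. The ranges overlapped, since sibling library 5 lay below mutant library 2, but within each column number the mutant library was the lower, at 0.402 to 0.579 of the sibling level. The log2 fold change was -1.04 (SE 0.305), and with replicate number as a block it was -1.003 (SE 0.115). In the fit without the block, the call was lost when mutant library 1 (log2 fold change -1.001), 4 (-1.04) or 5 (-0.85) or sibling library 2 (-0.80) or 4 (-0.93) was left out. Transcripts of 18 listed fibroblast and cartilage markers summed to 116 to 366 CPM in mutants and 206 to 333 CPM in siblings, and their part in the level of mmp2 was not tested.

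Both mmp13a rows lie on the plus strand of chromosome 10, one at 38593645 to 38602561 (ENSDARG00000012395) and the other 8179 bases downstream at 38610741 to 38620514 (ENSDARG00000114451). mmp13a encodes a collagenase. The reference list of gene names gives the symbol for the first ID only, so the second may be a further copy or part of the same gene, and reads may be shared between them. Reference genes of this chromosome include a separate protein-coding gene, LOC137496605, between mmp13a and mmp30. Whether it is the second row was not tested. The second row held 6.95% to 10.3% of the counts of both in siblings and 6.98% to 9.66% in mutants. This share overlapped between the genotypes, so the rows moved nearly in proportion.

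The first mmp13a row stood at 933, 305, 724 and 863 CPM in sibling libraries 1, 2, 4 and 5, and at 270, 179, 362 and 119 CPM in mutant libraries 1, 2, 4 and 5. As with mmp9, sibling library 2 was the lowest sibling and mutant library 4 the highest mutant, and the ranges overlapped through these libraries alone. The row was called lower, with a log2 fold change of -1.60 (SE 0.403), and it stayed called without any one of the 8 libraries, at -1.90 to -1.35. Matched by number, mutant libraries held 0.289, 0.586, 0.4997 and 0.138 of the sibling level.

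The second mmp13a row was called lower too, at 21.4 ± 12.8 against 65.2 ± 29.9 CPM (log2 fold change -1.61, SE 0.481). That call was lost without mutant library 1 (-1.63), 2 (-1.48) or 5 (-1.31) and without sibling library 1 (-1.57), 4 (-1.60) or 5 (-1.30). With the counts of both rows summed, a setting added with the data in view, the log2 fold change was -1.60 and the sum was called.

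mmp9 and the first mmp13a row kept a nearly fixed proportion within siblings although their coefficients of variation there were 40.6% and 39.8%. Their ratio was not among the planned comparisons, and both rows were chosen with their counts known, so it is a description only. Per kilobase it was 1.02, 1.01, 1.01 and 1.05 in sibling libraries 1, 2, 4 and 5. In mutant libraries 1, 2, 4 and 5 it was 1.85, 1.71, 1.83 and 2.18. Sibling library 2, which was low in both genes, did not depart from the ratio of the other siblings, and every mutant ratio was above every sibling ratio.

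**Figure D2:**
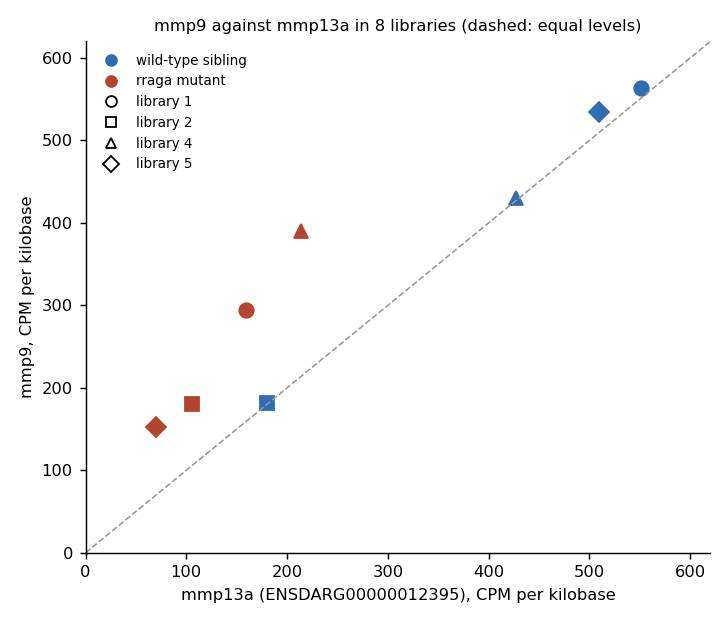
Level of mmp9 (vertical axis) against mmp13a ENSDARG00000012395 (horizontal axis), both in CPM per kilobase, for each of the 8 libraries, with siblings in blue, mutants in red and a dashed line where the levels are equal. Siblings lie along the line at ratios of 1.01 to 1.05, and mutants lie above it at ratios of 1.71 to 2.18.

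Some neutrophil markers, though not the list as a whole, were low and high in the same libraries as mmp9 and mmp13a. mpx, the myeloperoxidase gene of neutrophils, which was singled out after its values were seen, measured 805, 145, 759 and 718 CPM in sibling libraries 1, 2, 4 and 5 and 513, 238, 884 and 282 CPM in mutant libraries 1, 2, 4 and 5. npsn, which is also expressed in zebrafish neutrophils and was singled out in the same way, measured 405, 103, 306 and 322 CPM in siblings and 259, 104, 428 and 108 CPM in mutants. In both genes sibling library 2 was the lowest sibling and mutant library 4 the highest mutant, as for mmp9. The same held for cpa5 and il6r, and so for 4 of the 10 tested genes on the list. It did not hold for csf3r, for example, which was lowest in sibling library 1 and highest in mutant library 2. The share of all tested genes with this pattern was not determined, so the count of 4 shows nothing particular to neutrophil markers. Of 14 listed neutrophil markers 12 were in the table and summed to 7671 to 9750 CPM in mutants and 4370 to 5738 CPM in siblings. The list did not move one way. Of its 10 tested genes 5 were called higher and 0 lower, where 14.5% and 13.9% of all tested genes were. The means of the other 5, mpx, npsn, cpa5, csf3r and il6r, were lower in mutants without a call. Most of the larger sum came from cebpa, a myeloid transcription factor gene (3387 ± 269.7 against 1415 ± 216 CPM), lect2l (1145 ± 345 against 151 ± 42.4 CPM) and alas1, for a haem synthesis enzyme (2343 ± 265 against 1805 ± 191 CPM). The listed gene lyz was not tested, and its low counts limit what can be said of it. It was at 0 counts in mutant libraries 1, 2 and 5 and 6 in mutant library 4, and at 2, 18, 14 and 1 in sibling libraries 1, 2, 4 and 5, so the genotypes overlapped. The part of neutrophil RNA in the levels of mmp9 and mmp13a was not tested.

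mmp30 (ENSDARG00000045887), which begins 22789 bases past the second mmp13a row on the same strand, at 38643304 to 38663746, was not called. Its level was 5.90, 12.8, 9.31 and 18.9 CPM in sibling libraries 1, 2, 4 and 5 and 13.8, 1.84, 6.15 and 4.98 CPM in mutant libraries 1, 2, 4 and 5. The genotypes overlapped, with mutant library 1 above 3 of the siblings. The log2 fold change was -0.81 (SE 0.5496) and ran from -1.43 to -0.45 when one library was left out.

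Of the inhibitors, timp2b (ENSDARG00000075261, chromosome 3, 57632965 to 57666996, minus strand) was called lower. It measured 58.2, 57.97, 66.9 and 67.7 CPM in sibling libraries 1, 2, 4 and 5 and 38.0, 33.5, 36.9 and 38.4 CPM in mutant libraries 1, 2, 4 and 5. All mutants lay below all siblings, and the ratio within a column number was 0.551 to 0.653. The log2 fold change of -0.77 (SE 0.105) was small but steady, at -0.81 to -0.70 without any one library.

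timp2a (ENSDARG00000061226, chromosome 12, 33990947 to 34035364, minus strand) was low, at 15 to 62 counts per library. Its level was 1.47 ± 0.643 CPM in mutants and 1.59 ± 0.594 CPM in siblings, and the log2 fold change of -0.12 (SE 0.469) was not called. Summed per kilobase, the TIMP rows stood at 10.9 ± 0.655 CPM in mutants and 18.3 ± 1.44 CPM in siblings.

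The summed level of the 8 MMP rows per kilobase overlapped between the genotypes, while the shares of mmp25b, mmp9 and mmp13a in it did not. Shares of one sum are tied to each other, so a larger share of mmp25b by itself makes the other shares smaller. The level of mmp9 overlapped between the genotypes and was not called, so its smaller share is not a separate result. The sum of the 8 MMP rows was 1169, 414, 922 and 1114 CPM per kilobase in sibling libraries 1, 2, 4 and 5. In mutant libraries 1, 2, 4 and 5 the sum was 1008, 826, 1122 and 820. mmp9 and both mmp13a rows made up 46.7% ± 1.96 and 48.4% ± 1.62 of this sum in siblings, and 26.1% ± 7.26 and 14.9% ± 4.83 in mutants (SD, n = 4). mmp25b made up 1.26% ± 0.6999 in siblings and 54.9% ± 11.1 in mutants. Its lowest share in a mutant, 41.9% in library 4, was in the library with the most mmp9.

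**Figure D3:**
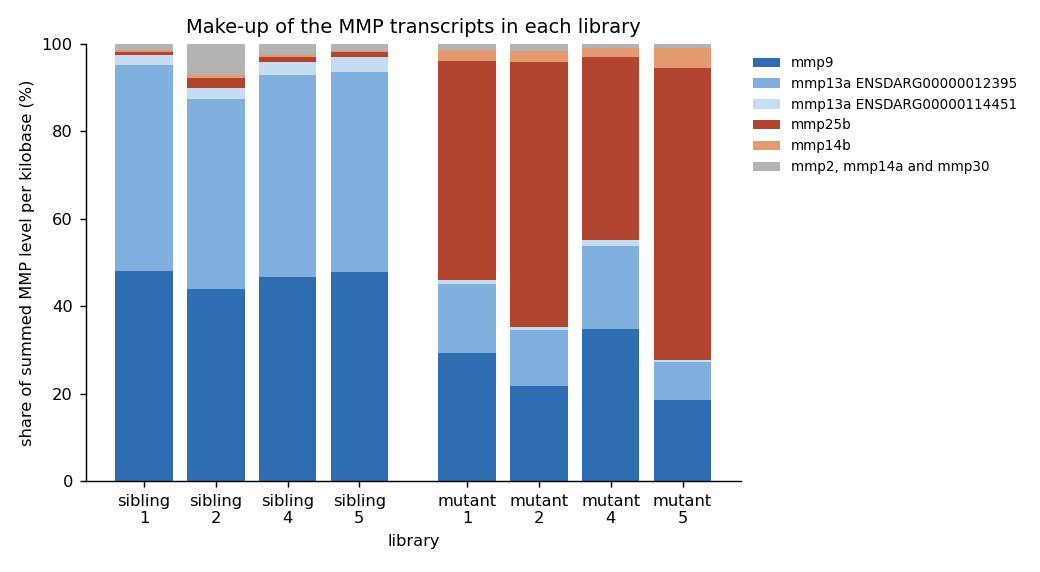
Share of each MMP in the summed MMP level per kilobase (vertical axis, percent) in each sibling and mutant library (bars). mmp9 and mmp13a fill most of each sibling bar, and mmp25b takes 41.9% to 66.9% of each mutant bar.

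In siblings the order of levels per kilobase ran from mmp9 and the first mmp13a row, at 427 ± 173 and 417 ± 166 CPM per kilobase, down to timp2a at 0.508 ± 0.190. mmp9 and the first mmp13a row overlapped, as did the second mmp13a row, timp2b, mmp2 and mmp25b from each to the next, mmp30 with mmp14b, and mmp14a with timp2a. In mutants mmp25b came first and did not overlap mmp9, which followed at 254 ± 109 CPM per kilobase. mmp9 overlapped the first mmp13a row, which was at 137 ± 62.7. mmp14b, next in this order, overlapped neither of its neighbours.

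Genes whose pattern over the 8 libraries was most like that of a row were found by the root mean square difference of log2 CPM, after each gene was centred on its own mean. Among genes of at least 10 CPM, those closest to mmp9 were prkcda (protein kinase C delta) at 0.144, il6r (an interleukin 6 receptor chain) at 0.189 and pxna (the adhesion protein paxillin) at 0.260 log2 units. il6r, which was also on the list of neutrophil markers, measured 381 ± 146 CPM in siblings and 230 ± 121 CPM in mutants. Closest to the first mmp13a row were si:dkey-27h10.2, CABZ01001434.1 and si:dkey-117a8.4, at 0.279 to 0.314 log2 units. The genes closest to mmp25b, a row added to this comparison after its values were seen, were casp3b, fgfr2 and gpnmb, at 0.245, 0.366 and 0.375 log2 units. Their log2 fold changes were 5.66, 5.67 and 5.97, beside 5.72 for mmp25b. So large a step between the genotypes weighs heavily in this measure, so the match is mainly one of fold change. casp3b, a gene for the apoptosis protease caspase 3, was at 2.99 CPM in siblings and 151 CPM in mutants.

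Of 27 further family names, TIMPs and the inhibitor gene reck included, 16 were in the table and 8 were tested, of which 1 rose and 1 fell. Of all tested genes, 14.5% were called higher and 13.9% lower. mmp15b, for another membrane-type MMP, rose from 2.27 ± 1.31 to 15.1 ± 3.16 CPM (SD, n = 4), with raw counts of 30 to 108 in siblings and 310 to 575 in mutants. The log2 fold change of mmp15b was 2.73 (SE 0.413), with an adjusted p = 0.00125 in the same edgeR test over all tested genes, and all 4 mutant libraries lay above all siblings. reck, which encodes a membrane-anchored inhibitor of several MMPs, fell from 20.0 ± 1.98 to 9.75 ± 2.77 CPM (log2 fold change -1.03, SE 0.208, adjusted p = 0.00549 by the same edgeR test). Its span holds lancl2 and tgfbr1b on the same strand, with 122% and 88.3% of its count, so its value is uncertain. The list's median log2 fold change was 0.05, and that of all tested genes -0.09.

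**Figure D4:**
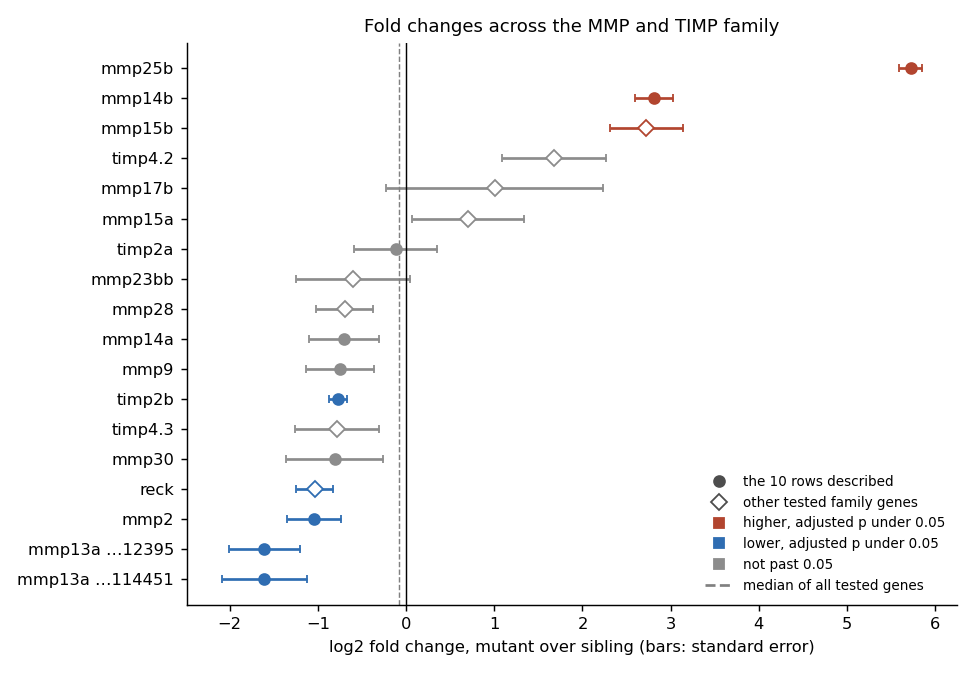
Log2 fold change of mutants over siblings (horizontal axis, bars are standard errors) for the 10 rows described (circles) and the 8 other tested family genes (diamonds), in red or blue where called. mmp25b at 5.72, mmp14b at 2.81 and mmp15b at 2.73 are the called rows above 0, and reck, timp2b, mmp2 and both mmp13a rows are the called rows below it.

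mmp28, at 6.89 ± 3.04 CPM in mutants and 11.2 ± 2.99 CPM in siblings, did not pass (adjusted p = 0.140, edgeR), but did with replicate number as a block (log2 fold change -0.75, adjusted p = 0.0156). timp4.2, at 0.875 ± 0.147 against 0.268 ± 0.196 CPM, did not pass either (log2 fold change 1.68, adjusted p = 0.0597, edgeR). The collagenase gene mmp13b had 3 counts in 1 sibling library and 0 in the other 7.

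Genes that switch zymogens on, and the serpins that hold them back, formed a list of 17 of which 12 were tested. Called were 0 higher and 4 lower, where 14.5% and 13.9% of all tested genes were. plaua, which encodes the urokinase that turns plasminogen into plasmin, fell from 581 ± 145 to 215 ± 90.8 CPM (log2 fold change -1.43, SE 0.293, adjusted p = 0.00589, edgeR). It overlaps chuk on the other strand, which has 20.3% of its count, and the strand setting is not known. st14a, for the membrane protease matriptase, fell by 1.27 on the log2 scale (SE 0.144), from 29.3 ± 4.23 to 12.2 ± 1.16 CPM. serpine2, for a serpin that blocks urokinase and thrombin, fell by 0.94 (SE 0.156), from 149 ± 12.02 to 77.5 ± 16.2 CPM. tmprss2, for a surface serine protease, was also called lower, at 2.34 ± 0.333 against 4.37 ± 0.781 CPM, a call lost without mutant library 2, 4 or 5 or sibling library 1, 2 or 5 (adjusted p = 0.0506 to 0.0678, edgeR). furina and furinb, whose proprotein convertase removes the propeptide of membrane-type MMPs, were at 28.0 ± 2.60 against 27.8 ± 3.72 and at 11.01 ± 3.35 against 12.9 ± 1.42 CPM and did not pass. The list's median log2 fold change was -0.84, and that of all tested genes -0.09.

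The related ADAM genes held 3 higher and 1 lower of 12 tested genes, where 14.5% and 13.9% of all tested genes were. adam10a rose from 349 ± 13.7 to 475 ± 53.2 CPM (log2 fold change 0.45, SE 0.103, adjusted p = 0.0106, edgeR), a call lost when libraries were scaled by size alone (0.27, adjusted p = 0.0833). adam9 rose by 0.66 (SE 0.125), from 28.4 ± 3.13 to 44.9 ± 4.31 CPM, and was called under every alternative. adam8b was called higher at 14.02 ± 7.36 against 5.53 ± 2.50 CPM, with overlapping ranges (adjusted p = 0.0419, edgeR). The adam8b call was lost with upper-quartile factors (0.0503), with library size alone (0.0775), and without mutant library 1 or 5 or sibling library 1, 2 or 4 (adjusted p = 0.0923 to 0.104). adam11, whose mammalian product lacks protease activity, fell by 1.59 on the log2 scale (SE 0.266), from 15.5 ± 3.49 to 5.16 ± 1.69 CPM.

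Of 20 ADAMTS and ADAMTS-like names only 3 genes were tested, and 1 was called higher and 1 lower. The shares over all tested genes were 14.5% and 13.9%. The higher gene, adamts1, for a secreted protease that cuts large proteoglycans, measured 23.1 ± 5.52 CPM in siblings and 495 ± 149 CPM in mutants (SD, n = 4), a log2 fold change of 4.42 (SE 0.264, adjusted p = 7.0e-06, edgeR). adamts9 was called lower at 0.130 ± 0.0378 against 0.560 ± 0.283 CPM (adjusted p = 0.0218, edgeR), from raw counts of 2 to 5 in mutants and 11 to 25 in siblings. That call was lost in 8 of 16 alternatives: with no filter, limma-voom, replicate number as a block, without any one mutant library and without sibling library 4 (adjusted p = 0.0501 to 0.0766).

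**Figure D5:**
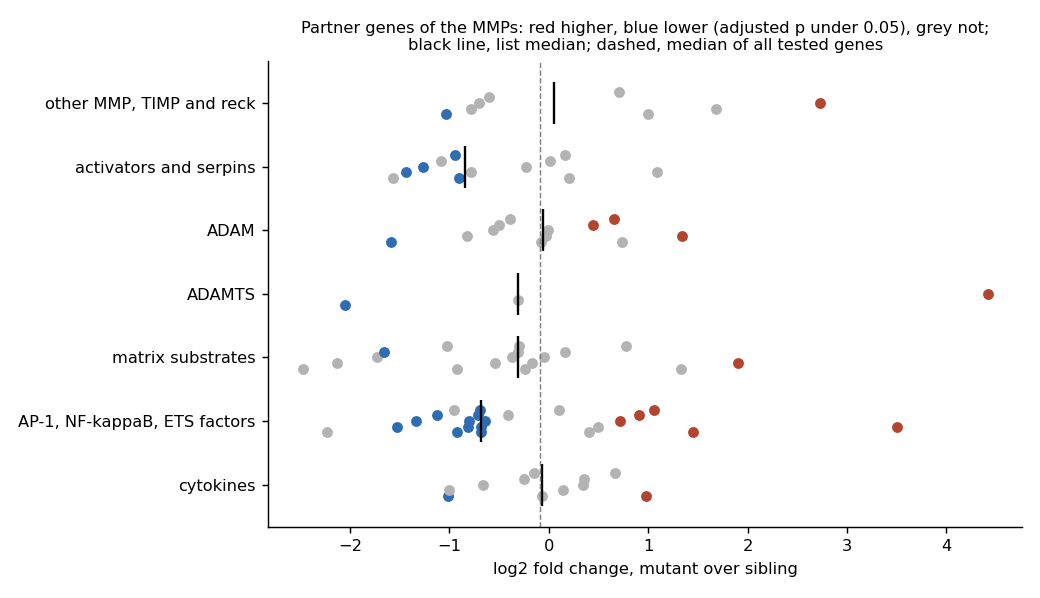
Log2 fold change of mutants over siblings (horizontal axis) for the tested genes of each partner list (rows), red where higher and blue where lower, with a black line at each list's median and a dashed line at the median of all tested genes. adamts1 lies at 4.42, and the activators and the transcription factors have medians of -0.84 and -0.68.

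Among matrix proteins that MMPs cut, 1 of 17 tested genes rose and 1 fell, where 14.5% and 13.9% of all tested genes did. col5a1, for a chain of collagen V, fell from 17.2 ± 4.53 to 5.47 ± 2.01 CPM (log2 fold change -1.65, SE 0.294, adjusted p = 0.00290, edgeR), and col4a1, for a basement membrane collagen, rose from 1.87 ± 0.524 to 7.04 ± 2.47 CPM. AP-1, NF-kappaB and ETS factors are known to act on MMP promoters in mammals. Of 22 tested genes for them, 5 rose and 11 fell, where 14.5% and 13.9% of all tested genes did. Their median log2 fold change was -0.68, and that of all tested genes -0.09. Not all of the 11 lower genes are named here. fosab (c-Fos) fell from 1100 ± 155 to 383 ± 70.1 CPM and fosl2 (Fra-2) from 533 ± 82.4 to 211 ± 28.8 CPM. The AP-1 genes junba (1240 ± 132 to 653 ± 45.3 CPM), jun (1127 ± 234 to 646 ± 150 CPM), jund and fosb were also called lower. The AP-1 family genes atf3 and fosl1b rose, from 186 ± 51.4 to 510 ± 101 CPM and from 0.208 ± 0.174 to 2.43 ± 0.7801 CPM. For fosl1b the raw counts were low, at 0 to 11 in siblings and 33 to 87 in mutants. Among NF-kappaB genes, nfkb2 (14.6 ± 2.41 to 24.0 ± 2.85 CPM) and relb (2.76 ± 0.483 to 5.18 ± 0.909 CPM) were called higher. The NF-kappaB gene rel was called lower, from 653 ± 66.0 to 420 ± 28.1 CPM. The copies of the gene for the myeloid ETS factor PU.1 moved in opposite directions. spi1b rose from 685 ± 75.8 to 1428 ± 47.5 CPM (log2 fold change 1.06, SE 0.105), and spi1a fell from 1213 ± 147 to 749 ± 138 CPM (-0.70, SE 0.152, adjusted p = 0.00821, edgeR). AP-1 genes also respond to cell dissociation, and the part of handling in these levels was not tested. Of 11 tested cytokine genes, 1 rose and 1 fell, where 14.5% and 13.9% of all tested genes did. tgfb1b, for transforming growth factor beta 1, rose from 44.8 ± 6.72 to 88.0 ± 10.04 CPM (log2 fold change 0.97, SE 0.137, adjusted p = 0.000815, edgeR), and its other copy tgfb1a was called lower, at 1.63 ± 0.552 against 3.29 ± 0.487 CPM, a call lost in 8 of 16 alternatives, with no filter and on leaving out mutant library 1, 2 or 4 or any one sibling library. il1b, an inducer of mmp9 and mmp13 in mammals, was at 1158 ± 157 against 1213 ± 253 CPM and did not pass.

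Markers of other cells were summed per library and compared by the exact two-sided permutation test, for which 4 against 4 libraries allow no p below 0.0286. Neutrophil markers (raw p = 0.0286), though in both directions gene by gene, and 14 endothelial markers (434 to 487 CPM in mutants, 243 to 302 CPM in siblings, exact permutation p = 0.0286) summed higher in all 4 mutants, and with adjustment over 9 lists both had p = 0.129. Of 8 tested endothelial genes 4 were called higher and 1 lower, where 14.5% and 13.9% of all tested genes were. Epithelial and keratinocyte markers summed to 431 to 1084 CPM in mutants and 1009 to 1887 CPM in siblings (raw p = 0.0571 by that exact test). Of their 16 tested genes 0 were called higher and 6 lower, where 14.5% and 13.9% of all tested genes were. Muscle markers summed to 605 to 5078 and 3879 to 6078 CPM (raw p = 0.0857 by that exact test). These sums were also compared with libraries of the same column number taken as pairs, a comparison added with the data in view. The epithelial and muscle sums were lower in the mutant library in 4 of 4 pairs, and the neutrophil and endothelial sums higher in 4 of 4. The exact paired permutation test gave p = 0.125 for each of these 4 sums, the smallest that 4 pairs allow. The part of these cells in the levels of the MMP and TIMP genes was not tested. Nor was their part in the levels of the partner genes, the activators included.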

How the data were processed

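Raw read counts for each Ensembl gene were deposited as a table of 8 library columns. The submitters' processing notes name the build GRCz11, featureCounts 1.5.0, HISAT2 2.0.5 and StringTie 1.3.3b but not what each was used for, and no source used here states the strand setting. The labels' protocols give SMART-Seq v4 for library making. Gene lengths were used as deposited. Per-library values in 16 other columns were not used.

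Column names gave the genotype. Column numbers 1, 2, 4 and 5 are not those of the titles, so columns stand for a genotype and not for one titled sample. Libraries of one genotype differed by far more than counting noise (chi-square over its degrees of freedom, 45.8 to 94.8). Deviations from the genotype mean correlated at 0.124 to 0.288 for libraries with the same number and at -0.182 to -0.00667 for others, so the numbers were taken to pair libraries, from the column names and this check alone. Within a genotype these deviations cancel, so higher correlations for some pairs force lower ones for others. The ranges are therefore not independent.

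After filterByExpr with a minimum count of 10, 16086 of 24221 genes were tested in R 4.3.3 with edgeR 4.0.16 (TMM factors, quasi-likelihood F test, two-sided, no covariate, Benjamini-Hochberg). Standard errors are the log2 fold change over the square root of F. The script was tested on simulated data. Other settings were upper-quartile or median-of-ratios factors, library size alone, no filter, at least 5 CPM in 4 libraries, DESeq2 1.42.0, limma-voom (limma 3.58.1), a block for replicate number, leaving out single libraries and, added with the data in view, summing the mmp13a rows.

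The members and lists were chosen with earlier results of these data known. Named were every member, each called family gene, up to 3 called genes of at least 10 CPM per partner list with the smallest p, and the 3 genes most like each of the 2 most abundant members. The neutrophil markers cebpa and alas1 were named as the most abundant of their list. Genes named outside this rule, chosen after their values were seen, were mpx, npsn, cpa5, csf3r, lect2l, lyz, mpeg1.1, mmp28, timp4.2, mmp13b, tmprss2 and furina. Also chosen in this way were furinb, adam8b, adamts9, atf3, fosl1b, junba, jun, jund, fosb, spi1a, col4a1, tgfb1a, il1b and the genes most like mmp25b. The NF-kappaB genes nfkb2, relb and rel were likewise named with their values known.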

Additional observations from a re-analysis of the deposited data

How the results depend on the processing

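The calls of mmp25b and mmp14b (higher), of timp2b and the first mmp13a row (lower) and the missing calls of mmp9, mmp30, mmp14a and timp2a were the same under every alternative that could be run for them, and mmp2 and the second mmp13a row were also called lower under every other scaling, filter and tool and with replicate number as a block. With one library left out, the members called lower numbered 2 to 3 and those called higher 2. timp2a changed sign without mutant library 4 (log2 fold change 0.15) and without sibling library 2 (0.03) or 5 (0.04), over a range of -0.35 to 0.15 with one library left out, and had no value under the stricter filter, nor had mmp14a. Of the 167 member values, 153 kept direction and call, 11 lost the call and 3 changed sign. All settings drew on the same 8 libraries, and the members were chosen with these counts known. Unchanged calls of members are therefore a description and no independent support. Across all tested genes, one library left out gave 1919 to 2203 higher and 1671 to 2093 lower, and replicate number as a block gave 2857 and 2673. Among other family genes, DESeq2 and limma-voom called 2 higher (timp4.2 joining mmp15b), and replicate number as a block called 2 lower (mmp28 joining reck); with one library left out, 1 to 2 were higher and 1 to 2 lower. Of the activator, ADAM and ADAMTS genes, library size alone called 2 higher (adam9 and adamts1); the block changed no call of a member. With one library left out, 3 to 4 of these genes were higher and 4 to 6 lower. Counts of 15 to 213 limit what can be said of timp2a and mmp14a.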
